A study of Mus musculus and Rattus norvegicus with 33 samples.

Results

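The 4 myogenic regulatory factors Myod1, Myf5, Myog and Myf6, the MEF2 factors Mef2a, Mef2c and Mef2d, the satellite cell factor Pax7 and the fusion gene Mymk were followed through nerve-driven muscle training in mice and rats. The 9 genes were taken by symbol from the deposited tables of both species. All 9 were found among 21322 mouse symbols, and 8 among 12411 rat symbols (Mef2c was not analysed in rats here). RNA came from the tibialis anterior, the shin muscle that lifts the foot, of wild-type animals in a study that drove the leg through implanted stimulators programmed over Bluetooth. The labels give no age. Mouse left legs were trained for 2 days (n = 2, legs TAL344 and TAL345), 10 days (n = 3, TAL340, TAL341 and TAL342) or over 17 days (n = 3, TAL337, TAL343 and TAL349), and 9 right legs served as contralateral controls. Rat left legs were trained daily for 30 days (n = 2, TAL292 and TAL294) or every 3 days for 30 days (n = 3, TAL295, TAL298 and TAL299), had sham surgery (n = 3, TAL296, TAL297 and TAL300), or were compared with 8 contralateral right legs. For trained legs the labels give a sampling time of 1 hour past the exercise, and for contralateral and sham legs none. No mouse was labelled as sham-operated, so in mice surgery and the side of the body cannot be told apart from training, and the sham label in rats does not say whether a device was in place. A leg is called by its code, TAL for left and TAR for right with the animal's number. The rat contralateral legs include TAR296, TAR297 and TAR300 of the sham rats. Among the mouse contralateral legs, TAR348 has no left leg in the series.

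The myogenic regulatory factors are basic helix-loop-helix proteins that bind E-boxes in DNA as partners of E proteins and switch on muscle genes. Myf5 and Myod1 act in committed and dividing myoblasts, Myog drives their differentiation, and Myf6, also called Mrf4, stays abundant in adult fibres. MEF2 proteins bind the promoters of many of the same genes and respond to calcium signalling through class II histone deacetylases. Pax7 marks satellite cells, the stem cells that lie beside each fibre, and Mymk encodes myomaker, a membrane protein needed for myoblasts to fuse.

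The promoters of Myog, the member that changed most in trained mice, and of Myf5, the neighbour of Myf6, are shown because an E-box is the site the factors themselves bind. Both are the 250 bases before the gene's start in RefSeq on GRCm38.p6, read 5′ to 3′ on the gene's strand, and capitals mark each E-box of the form CANNTG.
Myog (chr1:134289754-134290003, plus strand): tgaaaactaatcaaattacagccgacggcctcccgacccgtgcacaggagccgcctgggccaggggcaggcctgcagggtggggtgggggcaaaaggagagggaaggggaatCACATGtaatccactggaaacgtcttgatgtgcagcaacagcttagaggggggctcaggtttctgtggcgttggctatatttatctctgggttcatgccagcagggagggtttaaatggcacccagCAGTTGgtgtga
Myf5 (chr10:107486135-107486384, minus strand): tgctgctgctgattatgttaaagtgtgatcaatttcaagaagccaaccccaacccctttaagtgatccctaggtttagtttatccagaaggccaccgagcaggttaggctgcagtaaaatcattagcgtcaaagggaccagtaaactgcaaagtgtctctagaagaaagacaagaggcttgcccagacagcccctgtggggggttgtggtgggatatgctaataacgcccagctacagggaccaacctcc
The Myog window held 2 E-boxes, whose first bases lie 138 and 12 bases before the start, and the Myf5 window held 0. CANNTG reads the same pattern on both strands, and 66.2% of 32817 promoter windows of this length held at least 1. The tighter form CAGCTG, part of the same pattern, was in neither window and in 13.0% of all of them. A match is only a match of letters, and its absence says only that these letters are not in this window.

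In contralateral legs, Myf6 had the highest level of the members per kb of the length used, in both species. Its level was 53.7 ± 4.67 CPM per kb in mice (SD, n = 9) and 96.0 ± 15.5 CPM per kb in rats (SD, n = 8), where CPM is a gene's reads scaled to the total of its library. Mef2c (35.1 ± 4.12 CPM per kb) and Mef2d (34.6 ± 2.41) came next in mice and did not differ beyond their spread. Myod1 (14.2 ± 4.34) and Mef2a (11.1 ± 1.31) overlapped below them. Myog stood at 1.73 ± 1.47 CPM per kb in mice, Myf5 at 0.306 ± 0.0853, Pax7 at 0.278 ± 0.0510 and Mymk at 0.0462 ± 0.0549, and Myf5 and Pax7 did not differ beyond their spread. In rats, Mef2d (33.8 ± 5.23 CPM per kb), Myod1 (32.8 ± 14.1) and Mef2a (22.4 ± 4.07) overlapped in their ranges. Rat Myog, at 13.3 ± 3.06 CPM per kb, overlapped with Mef2a and Myod1, and below it came Myf5 at 0.827 ± 0.405, Pax7 at 0.584 ± 0.219 and Mymk at 0.294 ± 0.308, whose ranges overlapped. These levels are a description, since the length used was the union of annotated exons in mice and the deposited model length in rats. That length was 15715 bases for mouse Mef2c and 14681 for mouse Mef2a, against 1263 for mouse Myf6 and 3213 for rat Mef2a. A union of exons can exceed the length of a single transcript. Before division, mouse Mef2c averaged 552 CPM and Myf6 67.9 CPM, so the mouse order depends on the length used.

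Every member passed the filter for testing, a CPM of at least 1 in 2 or more libraries of the species. Mouse Myf5 passed only through the 2 legs trained for 2 days, and mouse Mymk only through trained legs TAL340, TAL344 and TAL349, so a difference of these genes is partly built into the filter. Rat Pax7 reached 1 CPM in 4 libraries and rat Mymk in 2. Estimated depth ran from 26.5 to 43.1 M reads in mice and from 11.6 to 28.0 M reads in rats, apart from TAR299, a rat library of 4.9 M reads. The fibre genes that define skeletal muscle were present, with 0 of 8 at 0 in mice and 0 of the 7 found in rats. In rats they summed to 124224.5 to 127478.3 CPM in daily trained and 142962.1 to 171569.5 CPM in every-3-days legs, against 176648.0 to 209783.7 CPM in sham and 153254.8 to 188339.0 CPM in contralateral legs. Daily training against sham gave 1 of 7 called higher and 3 lower, where 8.14% of all genes were called (573 higher and 270 lower). Both daily trained sums lay below all sham and contralateral sums. In mice they summed to 121901.0 to 130544.2 CPM after 2 days, 123294.8 to 135174.0 CPM after 10 days and 96578.1 to 109208.4 CPM after over 17 days, against 104674.1 to 155593.3 CPM in contralateral legs. At over 17 days 3 of 8 were called lower and 0 higher, where 8.78% of all genes were called (860 higher and 338 lower). Fibroblast markers, 8 in mice, summed to 903 to 1056 CPM after 2 days, 848 to 2349 CPM after 10 days and 807 to 2774 CPM after over 17 days of training, against 298.7 to 823 CPM in contralateral legs. Macrophage markers summed to 123 to 278, 117 to 263 and 67.1 to 746 CPM in the same 3 groups, against 39.0 to 183 CPM in contralateral legs, with 0 of 10 at 0. Rat fibroblast markers, 7 found of 8, summed to 1338 to 1523 CPM in daily trained, 773 to 2306 CPM in every-3-days and 299.6 to 657 CPM in sham legs, against 345.1 to 822 CPM in contralateral legs. Their part in the results on members was not tested.

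After 2 days of training, Myog rose in mouse muscle. Myog (chromosome 1, 134217727 to 134220287, GRCm39), the factor of the differentiation step, had 43.5 CPM in leg TAL344 and 8.16 CPM in TAL345, against a lowest, median and highest of 1.23, 1.96 and 8.34 CPM in the 9 contralateral legs. TAL344 stood above every contralateral leg, and TAL345 stood above all of them but TAR340. The log2 change was 2.85 ± 0.57 (SE; limma adjusted p = 0.00493). It was 1.68 without TAL344, no longer past the threshold (limma adjusted p = 0.386). Between the 2 legs of the same animal the difference, trained minus contralateral, was 4.22 for TAL344 and 1.82 for TAL345. In whole muscle, as for every value here, a change in the number of cells of a type and a change in RNA per cell cannot be told apart.

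Myf6, the factor of adult fibres, rose with Myog at 2 days. Myf6 (chromosome 10, 107328714 to 107330599) had 314 CPM in TAL344 and 102 CPM in TAL345, against a lowest, median and highest of 60.6, 64.4 and 75.5 CPM in contralateral legs, so both trained legs stood above all 9. The log2 change was 1.40 ± 0.26 (limma adjusted p = 0.00304), and 0.58 without TAL344 (limma adjusted p = 0.323). Myog and Myf6 were thus 2 of 9 members called in this comparison, where 9.72% of all 13647 genes tested were called.

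Myf5, the earliest of the factors, lies 6718 bases from Myf6 in mice (chromosome 10, 107318769 to 107321996). It had 1.09 and 1.30 CPM in the 2-day legs, against a lowest, median and highest of 0.375, 0.701 and 0.935 CPM in contralateral legs. Both trained legs stood above the others, and the change of 0.59 ± 0.21 did not pass the threshold (limma adjusted p = 0.0823). Myf5 passed the filter only through these trained legs, so this separation is partly built into the filter. Myod1, the factor of activated myoblasts (chromosome 7, 46025898 to 46028524), had 45.9 CPM in TAL344 and 16.7 CPM in TAL345, against 17.5 to 39.3 CPM (median 24.7) in contralateral legs. One trained leg was therefore the highest and the other the lowest of the 11, and the change of 0.12 ± 0.31 took the opposite sign, -0.60, without TAL344 (limma adjusted p = 0.84 with all legs). It was also below 0 with the animal as a block (-0.12).

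**Figure D1:**
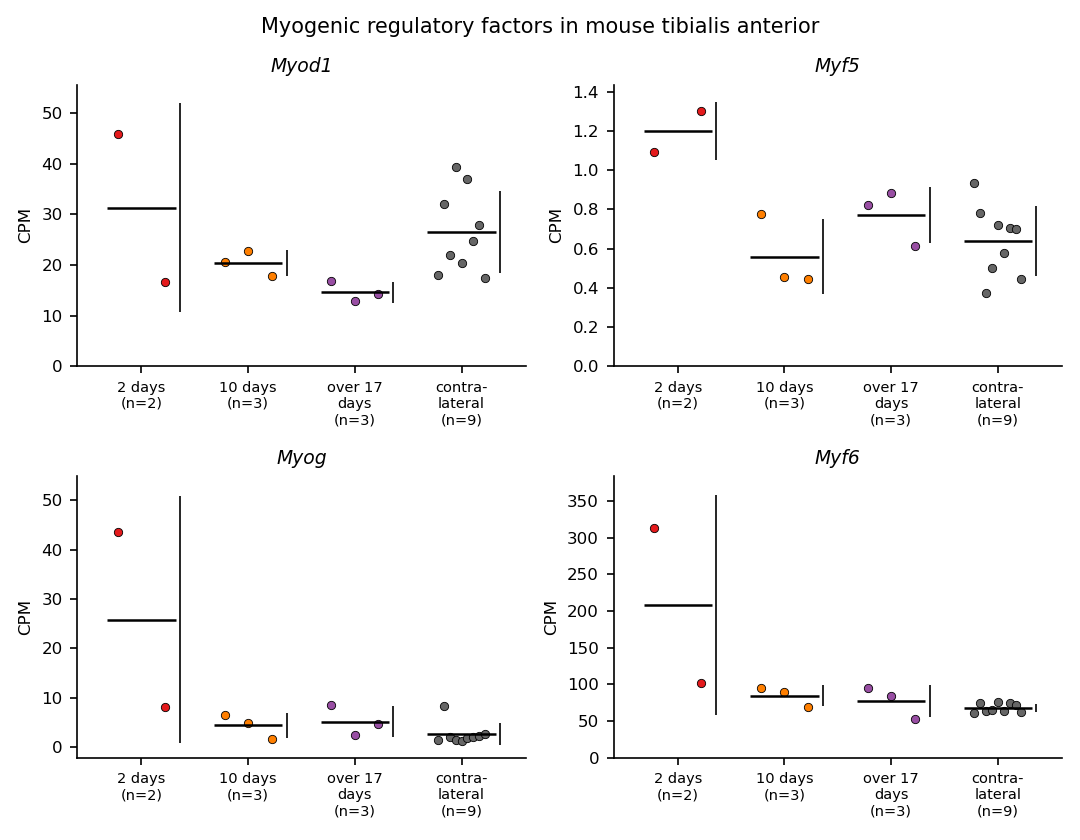
CPM of Myod1, Myf5, Myog and Myf6 in mouse tibialis anterior after 2, 10 and over 17 days of training and in contralateral legs; each point is 1 leg, horizontal bars are group means and vertical bars are ± 1 SD. Leg TAL344, trained for 2 days, has the highest Myog and Myf6 of all legs, at 43.5 and 314 CPM.

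After 10 days of training 0 of 9 members were called (5.53% of all genes were). Myog had 6.54, 4.90 and 1.72 CPM in legs TAL340, TAL341 and TAL342, all within the range of contralateral legs, with a change of 0.70 ± 0.49 (limma adjusted p = 0.48). Myf6 had 95.3, 89.8 and 68.5 CPM in the same legs. The first 2 values lay above every contralateral leg, and the change was 0.31 ± 0.23 (limma adjusted p = 0.506). Myod1 had 20.53, 22.8 and 17.7 CPM there, all within the contralateral range, with a change of -0.32 ± 0.26 (limma adjusted p = 0.548).

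After over 17 days 0 of 9 members were called, against 8.78% of all genes, and Myod1 had its lowest group mean, 14.6 ± 2.08 CPM against 26.5 ± 8.07 CPM in contralateral legs (SD, n = 3 and 9). It had 16.9, 12.8 and 14.2 CPM in legs TAL337, TAL343 and TAL349, and all 3 lay below the lowest contralateral leg (17.5 CPM). The change of -0.79 ± 0.26 missed the threshold (limma adjusted p = 0.07). It passed without 2-day leg TAL344, without 2-day leg TAL345 or without contralateral leg TAR349 (limma adjusted p = 0.0235, 0.0236 and 0.0491), and with only the compared groups in the fit or with median-of-ratios scaling (limma adjusted p = 0.0329 and 0.0264). With the animal as a block it was -0.34 (limma adjusted p = 0.407). The right legs of these 3 animals held 18.1, 20.3 and 17.5 CPM, the 3 lowest contralateral values. Myog had 8.52, 2.44 and 4.61 CPM in the 3 trained legs, and the first lay above the contralateral range. The change was 0.93 ± 0.49 (limma adjusted p = 0.267). Myf6 had 94.7, 83.6 and 53.2 CPM there, 2 legs above and 1 below every contralateral leg.

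Over all 8 trained mice, with the 3 groups weighted equally, the 2 members called were again Myog and Myf6, and 17.6% of all genes were called. The change of Myog was 1.49 ± 0.36 (limma adjusted p = 0.00782). It passed in all 25 alternative settings tried, with changes of 1.10 to 1.88, and Myog was higher in the trained leg of 7 of 8 mice. Myf6 changed by 0.62 ± 0.17 (limma adjusted p = 0.0153) and was higher in the trained leg of 7 of 8 mice, all but TAL349. Without TAL344 its change was 0.35 (limma adjusted p = 0.0582). Myod1 was lower in the trained leg of 6 of 8 mice, all but TAL341 and TAL344, with a change of -0.33 ± 0.19 (limma adjusted p = 0.247). Without TAL344 that change was -0.57 and passed (limma adjusted p = 0.04). Myf5 was higher in the trained leg of 5 of 8 mice, with a change of 0.22 ± 0.13 (limma adjusted p = 0.269).

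Between training times, 0 members were called. From 2 to 10 days only 3 genes were called in all (0.022%), with 1580 at an unadjusted limma p under 0.05. All 3 legs of the 10-day group held less Myog, Myf6 and Myf5 than both legs of the 2-day group, which for Myf5 is partly built into the filter. How many of all genes separated in this way was not counted, so this only describes 3 and 2 legs. The differences were -2.15 ± 0.67 for Myog and -1.09 ± 0.31 for Myf6 (limma adjusted p = 0.26 and 0.223). Without TAL345 they were -3.33 and -1.90 and both passed (limma adjusted p = 0.00824 and 0.000184). Without TAL344 they were -0.98 and -0.28 (limma adjusted p = 0.993 for both). Over 17 days against 2 days gave 0.586% of genes called, and Myf6 was lower in all 3 legs than in both 2-day legs, by -1.25 ± 0.31 on the log2 scale (limma adjusted p = 0.0722). Without TAL345 its difference was -2.06 and passed (limma adjusted p = 0.000106), and with median-of-ratios scaling it was -1.17 and passed (limma adjusted p = 0.0401). Myog and Myod1 differed by -1.93 ± 0.67 and -0.91 ± 0.36 there (limma adjusted p = 0.183 and 0.226), and both passed without TAL345 (limma adjusted p = 0.00901 and 0.00645). Without TAL344 the differences were -0.44 for Myf6, -0.75 for Myog and -0.19 for Myod1, and none passed (limma adjusted p = 0.988, 0.988 and 0.996). Over 17 days against 10 days gave 0.0% called in limma, 0 genes of 13647, with 781 at an unadjusted p under 0.05. Myod1 was the member whose 3 later legs (12.8 to 16.9 CPM) all lay below the 3 legs of the 10-day group (17.7 to 22.8 CPM). The share of all genes separated like this was not counted here either.

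Pax7, the satellite cell factor (chromosome 4, 139464373 to 139560840), was low throughout. It had 0.852 and 1.25 CPM after 2 days, 2.02, 1.28 and 1.10 CPM after 10 days and 0.893, 0.882 and 1.30 CPM after over 17 days, against a lowest, median and highest of 1.25, 1.60 and 2.22 CPM in contralateral legs. No trained leg was above the contralateral range, and 4 of 8 were below it. Pax7 was lower in the trained leg of 6 of 8 mice, and the change over all trained mice was -0.35 ± 0.13 (limma adjusted p = 0.0673). That change passed with median-of-ratios scaling (limma adjusted p = 0.0382) and without TAL340, TAL345 or TAL349 (limma adjusted p = 0.033, 0.0365 and 0.0438). Without TAL344 it was -0.29 (limma adjusted p = 0.213). By group it was -0.46 ± 0.21 at 2 days and -0.48 ± 0.18 at over 17 days (limma adjusted p = 0.165 and 0.102).

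Mymk, which encodes myomaker (chromosome 2, 26951648 to 26962192), was near 0 in contralateral legs, where it was listed at 0 in 3 legs and reached 0.231 CPM at most. It had 2.98 and 0.0798 CPM after 2 days, 1.63, 0.0754 and 0 CPM after 10 days and 0.721, 0.0260 and 1.40 CPM after over 17 days. Legs TAL344, TAL340, TAL337 and TAL349, from every training time, stood above all contralateral legs, and the other 4 trained legs did not. Mymk passed the filter only through trained legs TAL340, TAL344 and TAL349, so its difference is partly built into the filter. The change over all trained mice was 0.95 ± 0.34 (limma adjusted p = 0.0655). It passed without TAL342 or TAL343, trained legs near 0 (limma adjusted p = 0.0463 and 0.0301). Without TAL345, also near 0, it was 1.38, and without TAL344 it was 0.52. At 2 days it was 1.33 ± 0.55 (limma adjusted p = 0.126), with 2.62 without TAL345 and 0.04 without TAL344 (limma adjusted p = 0.00431 and 0.994), so that 1 leg decided it. At 10 days it was 0.59 ± 0.47 and at over 17 days 0.92 ± 0.47 (limma adjusted p = 0.543 and 0.246). Without TAL340 the 10-day change was -0.07.

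Of the 3 MEF2 genes, 0 were called in any mouse comparison. Mef2c, the MEF2 gene with the highest mouse CPM (chromosome 13, 83652153 to 83815200), had 629 and 534 CPM after 2 days, 717, 475 and 507 CPM after 10 days and 651, 549 and 775 CPM after over 17 days, against 469 to 639 CPM (median 561) in contralateral legs. Its change was 0.25 ± 0.13 after over 17 days (limma adjusted p = 0.279), and 2 of these 3 legs lay above the contralateral range. Mef2a (chromosome 7, 66880911 to 67022607) ran from 114 to 204 CPM over all trained legs, against 135 to 188 CPM in contralateral legs. Mef2d (chromosome 3, 88049679 to 88079394) ran from 202 to 251 CPM over trained legs, against 189 to 235 CPM in contralateral legs. Neither pair of ranges was separate.

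In rats, Myf6 was higher in every trained leg, and the rise was called for daily training and for both schedules together. Rat Myf6 (chromosome 7, 42813008 to 42814853, rn7) had 239 and 161 CPM in daily trained legs TAL292 and TAL294 and 144, 183 and 166 CPM in legs TAL295, TAL298 and TAL299 of the every-3-days group. Sham legs had 126, 109 and 102 CPM, and contralateral legs a lowest, median and highest of 88.7, 129 and 142 CPM. All 5 trained legs stood above all 3 sham and all 8 contralateral legs. Daily training against sham surgery gave a log2 change of 0.81 ± 0.21 (limma adjusted p = 0.0217), the call on 1 of 8 members where 8.14% of 10356 genes were called. Both schedules together against sham gave 0.68 ± 0.17 (limma adjusted p = 0.0144), again 1 of 8 members, with 9.83% of genes called. Daily training against contralateral legs gave 0.70 ± 0.18 (limma adjusted p = 0.0206), 1 of 8 members with 8.22% of genes called.

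These 3 calls on rat Myf6 were lost without TAL292, where the changes were 0.53, 0.54 and 0.42 (limma adjusted p = 0.359, 0.0884 and 0.501). They were lost also with the animal as a block, at 0.55, 0.50 and 0.54 (limma adjusted p = 0.347, 0.213 and 0.183). The calls against sham were lost without sham leg TAL297 (limma adjusted p = 0.0694 and 0.0682) or TAL300 (0.0524 and 0.0521). Training every 3 days gave 0.55 ± 0.18 against sham and 0.44 ± 0.15 against contralateral legs, which did not pass (limma adjusted p = 0.118 and 0.1). The first of these passed without contralateral leg TAR299 or with only the compared groups in the fit (limma adjusted p = 0.0438 and 0.0492). In each rat's own legs, Myf6 was higher on the trained side in 5 of 5, by 0.07 to 0.90, and in sham rats the difference between legs was -0.03, -0.03 and 0.03.

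Myf5, the gene 6830 bases from Myf6 in rats (chromosome 7, 42802946 to 42806178), had higher values in trained rat legs, and the change was called for training every 3 days. It had 4.66 and 3.69 CPM in daily trained legs, 4.10, 2.76 and 5.90 CPM in every-3-days legs and 1.53, 1.97 and 2.86 CPM in sham legs, against 0.411, 1.71 and 3.29 CPM (lowest, median and highest) in contralateral legs. Both daily trained legs stood above all sham and contralateral legs, and 2 of the 3 every-3-days legs did. Training every 3 days against contralateral legs gave 1.16 ± 0.32 (limma adjusted p = 0.0394). Myf5 and Mef2a were the 2 of 8 members called there, where 6.66% of genes were. The Myf5 call was lost in 11 of 23 alternative settings, among them the animal as a block (1.23, limma adjusted p = 0.147). Without TAL295 or TAL299 the changes were 1.15 and 0.91 (limma adjusted p = 0.15 and 0.221). Without sham leg TAL297 or contralateral legs TAR292, TAR294, TAR295, TAR296 or TAR300, taken 1 at a time, the adjusted p from limma lay between 0.0502 and 0.0651. The lowest value, 0.411 CPM, came from the shallowest library TAR299. Daily training gave 1.18 ± 0.38 (limma adjusted p = 0.063), which passed without contralateral leg TAR298 or TAR299 (limma adjusted p = 0.0314 and 0.0346). Against sham the changes were 0.86 ± 0.44 for daily, 0.84 ± 0.39 for every 3 days and 0.85 ± 0.35 for both (limma adjusted p = 0.249, 0.3 and 0.145), and the last passed without TAR299 (limma adjusted p = 0.0426).

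**Figure D2:**
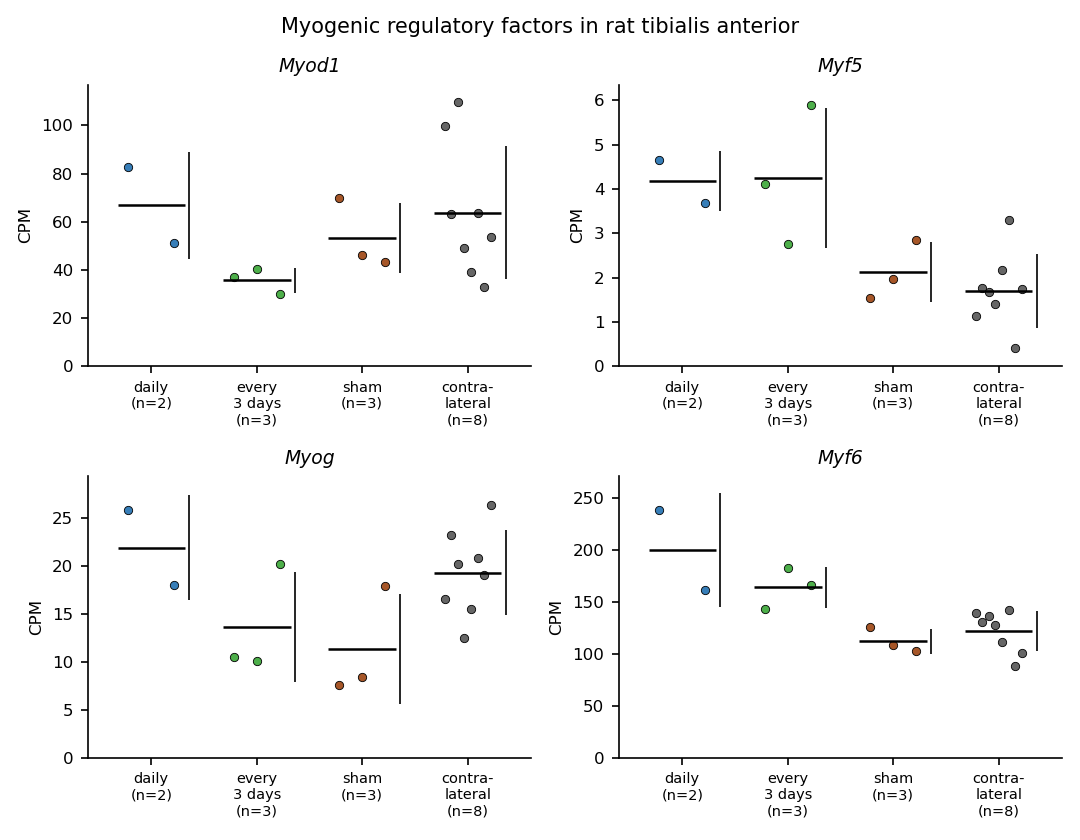
CPM of Myod1, Myf5, Myog and Myf6 in rat tibialis anterior after 30 days of daily training, training every 3 days or sham surgery and in contralateral legs; each point is 1 leg, horizontal bars are group means and vertical bars are ± 1 SD. For Myf6 the 5 trained legs (144 to 239 CPM) lie above all sham and contralateral legs (at most 142 CPM).

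Myod1 had low values in rats trained every 3 days, and 0 rat comparisons called it. Rat Myod1 (chromosome 1, 96884864 to 96887575) had 37.1, 40.2 and 30.0 CPM in these legs, against 69.9, 46.3 and 43.3 CPM in sham legs and 32.9, 58.3 and 110 CPM (lowest, median and highest) in contralateral legs. All 3 lay below every sham leg, and 1 of them below every contralateral leg. The change against contralateral legs was -0.73 ± 0.30 (limma adjusted p = 0.169). No member was called for this schedule against sham, where 4.25% of genes were. Daily trained legs had 82.5 and 51.1 CPM, above the 3 every-3-days legs, a difference between schedules of 0.86 ± 0.40 (limma adjusted p = 0.845). Between the schedules 0.0869% of genes were called, and 0 members. In own-leg pairs Myod1 was lower on the trained side in 5 of 5 rats, by -0.13 to -1.55, and in sham rats the left leg minus the right gave 0.51, 0.25 and -0.31.

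Rat Myog was called in 0 comparisons, and its lowest values were in sham legs. Myog (chromosome 13, 45745455 to 45748045) had 25.8 and 18.0 CPM in daily trained legs, 10.5, 10.1 and 20.2 CPM in every-3-days legs and 7.55, 8.44 and 17.9 CPM in sham legs, against 12.5, 19.7 and 26.4 CPM (lowest, median and highest) in contralateral legs. In sham rats it was lower in the left leg in 3 of 3 animals, by -0.69, -0.84 and -0.55. Sham against contralateral legs gave -0.82 ± 0.26, with an unadjusted p of 0.00629 and a limma adjusted p of 0.999. In limma 0 genes were called in that comparison (0.0%), with 282 at an unadjusted p under 0.05. Daily training against sham gave 1.01 ± 0.36 (limma adjusted p = 0.0924), and both schedules together 0.65 ± 0.29 (limma adjusted p = 0.172). Both passed without sham leg TAL300, at 1.38 and 1.02 (limma adjusted p = 0.0164 and 0.0291). Without TAL292 the first was 0.75 (limma adjusted p = 0.501), and without sham leg TAL296 the second was 0.43 (limma adjusted p = 0.558). Training every 3 days gave -0.53 ± 0.26 against contralateral legs (limma adjusted p = 0.281), and daily training against every 3 days gave 0.72 ± 0.36 (limma adjusted p = 0.866).

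Mef2a was the MEF2 gene called in rats. Rat Mef2a (chromosome 1, 120850126 to 120981961) had 96.2, 95.0 and 118 CPM in every-3-days legs and 79.3 and 89.6 CPM in daily trained legs, with 59.2, 82.3 and 81.9 CPM in sham legs and 53.2, 74.2 and 93.2 CPM (lowest, median and highest) in contralateral legs. The every-3-days legs lay above all sham, all contralateral and both daily trained legs. Against contralateral legs the change was 0.53 ± 0.15 (limma adjusted p = 0.0479), close to the threshold, and it passed in 6 of 23 alternative settings, with changes of 0.43 to 0.59 throughout. Leaving out a single library ended the call for 13 of the 16 libraries. With the animal as a block it was 0.55 (limma adjusted p = 0.0798), and it was 0.58, 0.59 and 0.43 without TAL295, TAL298 or TAL299 (limma adjusted p = 0.126, 0.0844 and 0.235). Against sham the change was 0.47 ± 0.19 (limma adjusted p = 0.201). Mef2d (chromosome 2, 173606490 to 173632363) ran from 65.1 to 86.7 CPM over the 5 trained legs and from 69.4 to 74.9 CPM in sham legs, against 46.8 to 82.7 CPM in contralateral legs, and was called in no comparison.

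Pax7 and Mymk were low in all rat legs. Pax7 (chromosome 5, 152000092 to 152097932) had 1.30 and 0.810 CPM in daily trained, 0.233, 0.394 and 0.805 CPM in every-3-days and 0.657, 0.0634 and 0.679 CPM in sham legs, against 0.544, 0.802 and 1.42 CPM (lowest, median and highest) in contralateral legs. Both daily trained legs stood above all 3 sham legs, and 0 rat comparisons called it. Mymk (chromosome 3, 10388361 to 10397344) had 0.604 and 0.455 CPM in daily trained, 1.49, 0.935 and 0.335 CPM in every-3-days and 0.821, 0.571 and 0.679 CPM in sham legs, against 0, 0.294 and 1.37 CPM in contralateral legs. In own-leg pairs Mymk was higher on the trained side in 5 of 5 rats, by 0.42 to 1.60 on the log2(CPM + 0.5) scale, and the left leg of sham rats gave 0.29, 0.30 and -0.67. For both genes the trained and contralateral ranges overlapped.

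**Figure D3:**
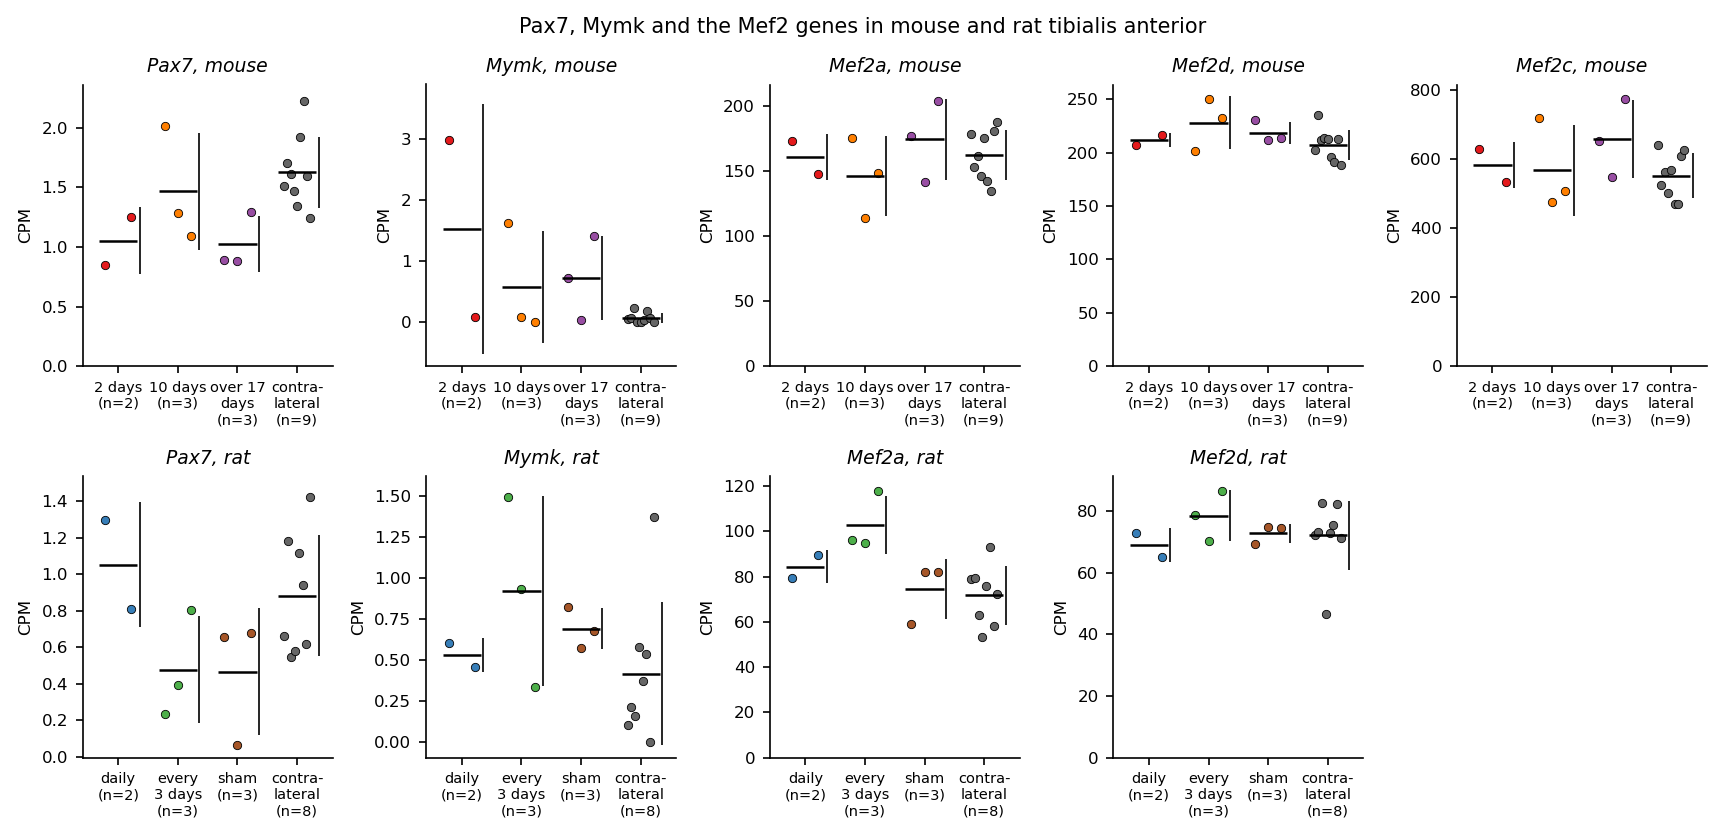
CPM of Pax7, Mymk, Mef2a, Mef2d and, in mice, Mef2c by group; each point is 1 leg, horizontal bars are group means and vertical bars are ± 1 SD, and each panel has its own scale. Mouse Mymk is above the contralateral maximum of 0.231 CPM in 4 of 8 trained legs, and the rat every-3-days legs lie above all others for Mef2a.

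Set side by side, the mouse and rat values share the direction of Myf6, which was higher in the trained leg of 7 of 8 mice and 5 of 5 rats. Myod1 was lower in the trained leg of 6 of 8 mice and 5 of 5 rats, with a median own-leg change of -0.42 in mice and -0.30 in rats. Myog was higher in the trained leg of 7 of 8 mice but of 2 of 5 rats. In sham rats, however, the left leg minus the right gave -0.69, -0.84 and -0.55 for Myog. Against sham legs, rat Myog changed by 1.01 under daily and 0.29 under every-3-days training, and neither change was called. Mef2d had median own-leg changes of 0.15 in mice and -0.07 in rats. The species differ in training times and in their tables, and no test was made between them.

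**Figure D4:**
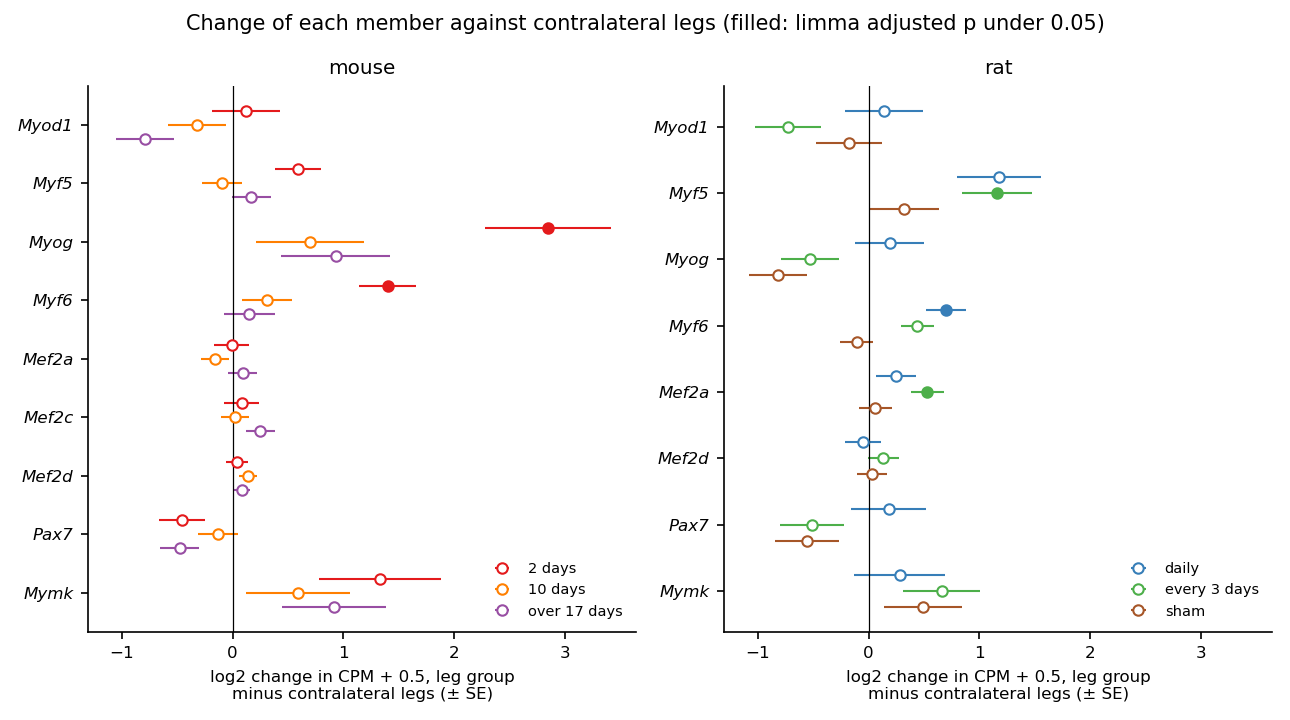
Change of each gene in log2(CPM + 0.5) against contralateral legs of the same species, with standard errors from limma; filled symbols passed an adjusted p under 0.05 and open symbols did not. In mice the filled symbols are Myog and Myf6 at 2 days, and in rats Myf6 under daily training and Myf5 and Mef2a under training every 3 days.

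**Figure D5:**
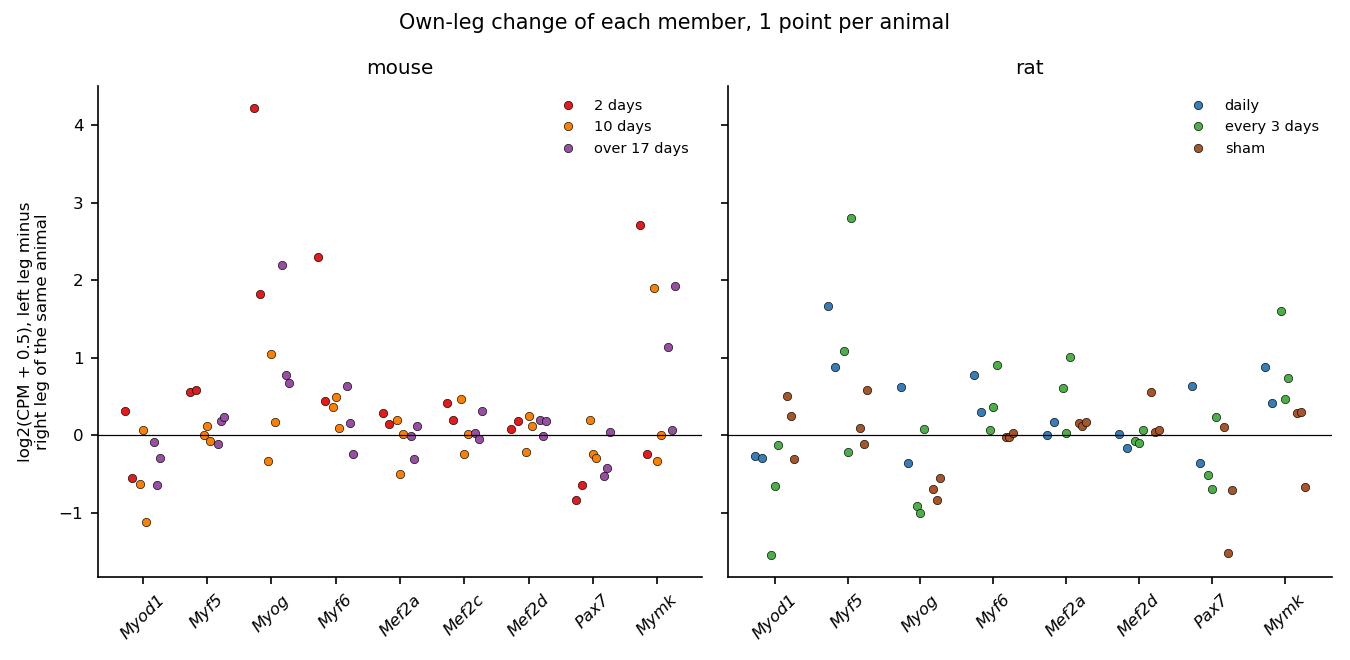
Difference in log2(CPM + 0.5) between the left and the right leg of the same animal, 1 point per animal, by gene and group. Rat Myf6 lies above 0 in all 5 trained animals (0.07 to 0.90) and within 0.03 of 0 in the 3 sham animals.

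The partners and inhibitors of the myogenic factors were followed as a list of 15 E proteins and inhibitors of helix-loop-helix factors, of which 14 were tested in mice and 11 in rats. Fibroblast and macrophage markers were higher in the same mice, where 6 of 8 and 9 of 10 were called over all trained legs, and their part in the counts of this and the next lists was not tested. Over all trained mice 7 of 14 were called higher and 0 lower, where 17.6% of all genes were called, and the list's median was 0.42 against 0.06 over all genes. Mdfi, which binds and inhibits the myogenic factors, averaged 1.36 ± 0.526 CPM in trained legs and 0.307 ± 0.198 CPM in contralateral legs (SD, n = 8 and 9). Its log2 change was 1.15 ± 0.19 (limma adjusted p = 0.000471). No contralateral leg reached 1 CPM, so Mdfi passed the filter only through trained legs. Its difference, and its place among the 7 called, are thus partly built into the filter. Id2, which sequesters E proteins, changed by 1.00 ± 0.23 (limma adjusted p = 0.00495), with 4.54 ± 3.59 CPM in trained and 1.77 ± 0.262 CPM in contralateral legs. In rats 4 of 11 were called higher and 0 lower over both schedules against sham, where 9.83% of all genes were called, and the median was 0.43 against 0.08. Id4, another Id protein, had 27.6 to 45.7 CPM in trained legs and 1.46 to 3.75 CPM in sham legs, a change of 3.75 ± 0.41 (limma adjusted p = 7.91e-06). The calls on Mdfi, Id2 and rat Id4 passed in all alternative settings tried, 25 in mice and 23 in rats. For Mdfi this is no separate support, since all settings but the one without a filter kept that filter.

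Among 17 partners and regulators of MEF2, 16 were tested in mice, and 4 were called higher and 3 lower over all trained mice (17.6% of all genes called, median 0.10 against 0.06 over all genes). Vgll2, a vestigial-like cofactor expressed in muscle, averaged 109 ± 15.5 CPM in trained and 53.5 ± 7.08 CPM in contralateral legs, a change of 1.01 ± 0.08 (limma adjusted p = 1.19e-07). Rcan1, a calcineurin inhibitor that is itself induced by calcineurin, averaged 171 ± 78.0 CPM in trained and 70.5 ± 15.1 CPM in contralateral legs, a change of 1.28 ± 0.15 (limma adjusted p = 8.78e-06). Camk2a, a calcium-dependent kinase, fell by 0.63 ± 0.07 on the log2 scale, to 279 ± 35.5 CPM in trained legs against 430 ± 26.2 CPM in contralateral legs (limma adjusted p = 1.03e-05). In rats 13 were tested, and 2 were called higher and 1 lower over both schedules against sham (9.83% of all genes called, median 0.00 against 0.08). Rat Rcan1 ran from 341.7 to 1075 CPM in trained legs and from 61.2 to 82.3 CPM in sham legs, a change of 2.96 ± 0.30 (limma adjusted p = 3.77e-06). Rat Vgll2 changed by 1.06 ± 0.17 (limma adjusted p = 0.000402), with 119 to 202 CPM in trained and 69.8 to 82.6 CPM in sham legs, and it missed the threshold with the animal as a block (limma adjusted p = 0.0515).

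Of 18 further satellite cell genes, 17 were tested in mice, and 4 were called higher and 1 lower over all trained mice (17.6% of all genes called, median 0.07 against 0.06). Sdc4, a surface proteoglycan of satellite cells that other cells carry too, averaged 50.2 ± 12.5 CPM in trained and 16.1 ± 3.20 CPM in contralateral legs, a change of 1.56 ± 0.13 (limma adjusted p = 2.82e-07). In rats 16 were tested, with 3 called higher and 1 lower over both schedules against sham (9.83% of all genes called, median 0.10 against 0.08). Rat Sdc4 ran from 101 to 151 CPM in trained legs and from 15.1 to 18.2 CPM in sham legs, a change of 2.96 ± 0.24 (limma adjusted p = 2.67e-07). Rat Hes1, a target of Notch signalling, changed by 1.90 ± 0.32 (limma adjusted p = 0.000719), with 15.9 to 57.8 CPM in trained and 6.13 to 8.82 CPM in sham legs.

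Among genes of fusion and new fibres and genes linked to Myog in denervated muscle, the 2-day calls on Myh8 and Chrng rested on leg TAL344. At 2 days, where 9.72% of all genes were called, 2 of 13 tested fusion and new-fibre genes and 7 of 15 denervation and synapse genes were called higher and 0 lower, with medians of 0.71 and 1.31 against 0.11 over all genes. A count of 2 of 13 is near the share of all genes and is no result about the fusion genes. Myh8, the perinatal myosin heavy chain, had 93.0 CPM in TAL344 and 14.3 CPM in TAL345, against 3.56 to 9.37 CPM in contralateral legs, and passed the test (limma adjusted p = 0.0193). Chrng, the fetal subunit of the acetylcholine receptor, had 20.1 CPM in TAL344 and 0.0266 CPM in TAL345, against 0 to 0.193 CPM in contralateral legs, a change of 2.52 ± 0.78 (limma adjusted p = 0.0491). Without TAL344 the change of Chrng was -0.12 (limma adjusted p = 0.983) and the call on Myh8 was lost (limma adjusted p = 0.691). With the replicate block neither was called (limma adjusted p = 0.155 for Chrng and 0.0738 for Myh8). Chrng was lost in 19 of 25 alternative settings. Its contralateral values also mean that it passed the filter only through trained legs, so its difference is partly built into the filter. Trim63, a muscle ubiquitin ligase on the same list, rose over all trained mice by 1.64 ± 0.16 (limma adjusted p = 1.16e-06), with 474 to 1060 CPM in trained and 150 to 336 CPM in contralateral legs. In rats 1 of 13 tested fusion genes was higher and 0 lower over both schedules against sham, and 2 of 13 denervation and synapse genes were higher and 0 lower (9.83% of all genes called, medians -0.12 and 0.08 against 0.08). Rat Trim63 was one of these, at 1.42 ± 0.13 (limma adjusted p = 8.46e-07), with 469 to 807 CPM in trained and 217 to 224 CPM in sham legs.

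Of 14 proliferation genes, 7 were tested in mice and 8 in rats. Over all trained mice 4 were called higher and 1 lower (17.6% of all genes called, median 0.38 against 0.06), and over both rat schedules against sham 2 were higher and 1 lower (9.83% of all genes called, median 0.35 against 0.08). The 2 higher rat calls, Mki67 and Bub1, were lost with the animal as a block (limma adjusted p = 0.279 and 0.325). Both were lost also without TAL292, TAL296 or TAL297, and Bub1 without TAL294 or TAL299. Mki67, a marker of dividing cells, had 0.905 to 6.70 CPM in trained mouse legs and 0.116 to 2.17 CPM in contralateral legs, a change of 1.39 ± 0.28 (limma adjusted p = 0.00198). Tpx2, a spindle assembly factor, fell by 0.79 ± 0.13 on the log2 scale in trained mice, to 1.82 ± 0.366 CPM against 3.51 ± 0.750 CPM in contralateral legs (limma adjusted p = 0.000281). In rats it fell by 2.59 ± 0.50, to 3.19 to 9.55 CPM in trained legs against 13.1 to 66.1 CPM in sham legs (limma adjusted p = 0.00278).

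The genes whose levels ran most like each member over all libraries of a species are given as a description, since the libraries share animals and groups. Over 17 mouse libraries, Pearson's r of log2(CPM + 0.5) set Mymk nearest to Myh3, the embryonic myosin heavy chain (0.94), and Tnni1, slow troponin I (0.92). Myod1 ran with Tnnt3, fast troponin T (0.92), and Pwwp3a (0.90). Myog ran with Plk2 and Tnfrsf23 (0.93 each), and Myf6 with Txn1, thioredoxin, and Psmb4, a proteasome subunit (0.96 each). Mouse Myog and Myf6 were highest in leg TAL344, at 43.5 and 314 CPM, against at most 8.52 and 102 CPM in the other legs. Mouse Mymk was highest there too, at 2.98 CPM, and was above 0.231 CPM only in TAL344, TAL340, TAL337 and TAL349. Its r thus rests on a few legs of a gene near 0. No r was computed without TAL344 or without these legs. Myf5 ran with Asf1b, a histone chaperone (0.82), and Tmco1 (0.80), and Pax7 with Gm42568 (0.83) and Mybpc2, fast myosin binding protein C (0.80). Mef2a ran with Lmbrd2 (0.91) and Mef2c with Hnrnph2 (0.92), and both had Naa30 next (0.90 and 0.91). Mef2d ran with Cebpb, a transcription factor (0.86), and Cnksr3 (0.83). Over 16 rat libraries the leading genes were Mllt11 for Myf6 (0.94), Abhd6 for Myf5 (0.95), Lgr4 for Mef2a (0.94), Crkl for Mef2d (0.95), Kansl2 for Myog (0.87), Eprs for Pax7 (0.81) and RT1-Ba for Mymk (0.87). Rat Pax7 ran also with Myog itself (0.77).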

How the data were processed

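Libraries from 17 mouse and 16 rat legs were read from the deposited tables, 1 per species. Values are CPM as the authors deposited them, and every value carried an added 0.0001, which was taken off. The submitters' processing notes list STAR 2.7.8a, Partek and DESeq2, and as builds GRCm39, mm10 and rn7, with no roles. The sources used here do not give the counting step or its use of strand, so a gene and an overlapping antisense gene cannot be told apart. Rat rows that share a symbol were summed, and in mice the row with the largest total was kept. Coordinates stand as in the tables. Their build is not stated there. For mice GRCm39 was inferred here by comparison with a GRCm38 annotation, and rn7 is the rat build in the notes.

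Depth was estimated from the steps between low values. Between 85.2 and 87.1 percent (mice) and between 87.5 and 89.5 percent (rats) of values up to 20 reads fell within 0.05 of a whole read, and a count test was therefore not run. Genes with a CPM of at least 1 in 2 libraries, 13647 in mice and 10356 in rats, were tested on log2(CPM + 0.5) with limma 3.58.1 (trend, 2-sided) in R 4.3.3, a fit tested on simulated data. All groups of a species shared the spread, and Benjamini-Hochberg adjustment ran over all genes tested, with calls under 0.05. This scale understates changes of low genes. A change is given ± its standard error and a CPM mean ± its SD. Comparisons with the same contralateral or sham legs are not independent. Statements that the legs of a group lay above or below those of another are descriptions. The share of all genes whose groups did not overlap was not counted. The labels give no batch.

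The animal's number pairs its left and right legs. Across genes, deviations of the 2 legs from their group means correlated by 0.12 to 0.30 in mice, with -0.03 in animal 345, and by 0.04 to 0.26 in rats. Alternatives were the animal as a block, pseudocounts of 0.1 and 1, no filter, median-of-ratios scaling, mitochondrial genes left out (mice), only the compared groups, another handling of shared symbols and each library left out.

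The members and gene lists were chosen with earlier results of these data known, and the lists got no test. Named genes are all members, up to 2 called genes with the largest change per direction, list and comparison, of which the examples printed were picked after their values were seen, and the 2 genes most like each member, of which those for rat Myod1 are not reported here. Promoters came from RefSeq. Python 3.11.15, numpy 2.4.6, pandas 2.3.3 and matplotlib 3.10.9 were used.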

Additional observations from a re-analysis of the deposited data

Results flagged for a closer look

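Of 17 gene and contralateral group combinations, 3 had a leg that stood far from the others by Dixon's test, where chance gives about 1 in 20. Myog in mouse contralateral leg TAR340 was 8.34 CPM, and the next highest of the 9 legs had 2.71 CPM. Mef2d in rat contralateral leg TAR296 was 46.8 CPM, and the next lowest of the 8 legs had 71.5 CPM. Mymk in rat contralateral leg TAR300 was 1.37 CPM, and the next highest had 0.577 CPM.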

How the results depend on the processing

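Of the member and list-gene changes followed, 151 in all, recomputation gave 3625 values, of which 3340 kept their direction and side of the threshold, 253 no longer passed, 27 newly passed and 5 reversed. At 2 days Myod1 was -0.01 with median-of-ratios scaling and -0.12 with the replicate block, and with 1 library left out it ran from -0.60 to 0.84. Chrng ran from -0.12 to 5.17 at 2 days and Mymk from -0.07 to 0.97 at 10 days with 1 library left out. The cause was not tested. Median-of-ratios scaling moved the median change of all genes at 2 days to -0.004, against 0.114 without it, and the share of higher genes among those called to 52.6%, against 75.3%.

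With the animal as a replicate block, genes called numbered 560 at 2 days and 400 at 10 days in mice, 1 for 10 against 2 days and 1 for over 17 against 2 days. In rats they numbered 284 (daily) against contralateral legs, 143 (daily), 172 (every 3 days) and 316 (both) against sham, and 0 between schedules. Members called under the block were 0 for daily and 0 for every 3 days against contralateral legs, and 0 for daily and 0 for both against sham. With only the compared groups, genes called were 1250 (10 days), 0 (10 against 2 days), 4 (over 17 against 2 days) and 21 (between rat schedules), and members called were 1 (over 17 days), 0 (every 3 days against contralateral) and 1 (every 3 days against sham). Median-of-ratios scaling gave 12 genes (10 against 2 days) and 127 genes with 1 member (over 17 against 2 days), and 1 member at over 17 days. For 10 against 2 days, no filter gave 14 genes and leaving mitochondrial genes out gave 13. A pseudocount of 1 gave 1 gene for over 17 against 10 days. For every 3 days against contralateral legs, a pseudocount of 0.1 gave 0 members and no filter gave 1.

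With 1 library left out, genes called in mice ran from 196 to 3421 (2 days), 365 to 982 (10 days), 566 to 1451 (over 17 days), 1561 to 3916 (all trained), 0 to 1612 (10 against 2 days), 15 to 2244 (over 17 against 2 days) and 0 to 1 (over 17 against 10 days). In rats they ran from 123 to 1325 (daily) and 323 to 983 (every 3 days) against contralateral legs, 0 to 1 (sham), 188 to 1509 (daily), 250 to 725 (every 3 days) and 477 to 1767 (both) against sham, and 3 to 29 between schedules. Members called ran from 0 to 3 (2 days), 0 to 1 (over 17 days), 2 to 4 (all trained), and 0 to 3 for each later time against 2 days. In rats they ran from 0 to 2 for each schedule against contralateral legs, 0 to 1 for each schedule and 0 to 2 for both against sham. A group left with 1 library was assumed to vary like the others. Groups of 2 or 3 legs, and the depth of TAR299, limit what could be detected for Pax7, Mymk and Myf5.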
